A study of Saccharomyces cerevisiae with 22 samples.

Results

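The genes described here lie on 1 stretch of the right arm of yeast chromosome VII, from KSS1 (YGR040W) to RTS3 (YGR161C). They were chosen by systematic name alone, as all genes on the array named from YGR040W through YGR161C except 1. The rule gave 122 of the 6225 genes on the array, and 121 of them were measured well enough to be tested, with YGR139W as the exception. In the study's resequencing, this stretch was trisomic in 1 of its evolved lines. The labels do not give that line's name, and among the strains on these arrays only B3 stood above the others over the stretch.

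All strains were self-diploids of BY4742, a MATα laboratory strain of Saccharomyces cerevisiae that lacks working HIS3, LEU2, LYS2 and URA3. They were the ancestor and 3 evolved strains, B3, D11 and H9, grown in medium without leucine. The evolved strains descend from 1 clone and evolved while they carried the mistranslating plasmid, for a time on which the sources differ, and the study resequenced a single clone of each line. On the arrays each strain carried either a single-copy LEU2 plasmid with a Candida albicans serine tRNA that reads the leucine codon CUG, or the empty vector. With the empty vector, B3 and the ancestor had 2 arrays each. Each of the other 6 groups had 3, so there were 22 in all. The probe of LYS2 was above background on 0 of the 22 arrays, that of URA3 on 4, that of HIS3 on 5, and that of LEU2, which the plasmids carry, on 22. The array median of the processed signal ran from 356 to 2278, and it was lowest on D11 with the empty vector, replicate 3. That array also had the smallest share of spots well above background, 85.8%.

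A diploid cell that gains an extra copy of a segment has 3 copies of each of its genes in place of 2. In yeast most genes are transcribed from every copy, so the RNA of such a segment tends to follow the number of copies. Some genes depart from this. Transcripts under feedback or nutrient control can stay near their usual level, and for subunits of protein complexes the surplus is often removed only as protein. Genes that keep to the copy number are called followers here, and genes that do not are called escapers, by an interval rule given below. The segment holds genes of many pathways, among them SPT4 and SPT6, which assist RNA polymerase II during elongation, factors that build the ribosome, splicing factors, S-phase and mitotic cyclins, the cytosolic catalase CTT1 and several permeases.

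A level is the log2 of the processed signal minus the median of its array. It can be compared between arrays for 1 gene, but not between genes, which have different probes. The level was averaged over the 121 tested genes on each array and the mean of the ancestor arrays with the same plasmid was subtracted. With the empty vector the segment mean of B3 lay 0.47 above the ancestor on both arrays. With the tRNA it lay 0.52, 0.56 and 0.58 above on the 3 arrays, which is 0.55 ± 0.032 (SD, n = 3). None of the 17 arrays of the other strains came near these values. The means were -0.07 ± 0.030 in D11 and -0.07 ± 0.026 in H9 with the empty vector, and 0.04 ± 0.077 in D11 and 0.08 ± 0.044 in H9 with the tRNA (SD, n = 3 each).

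**Figure D1:**
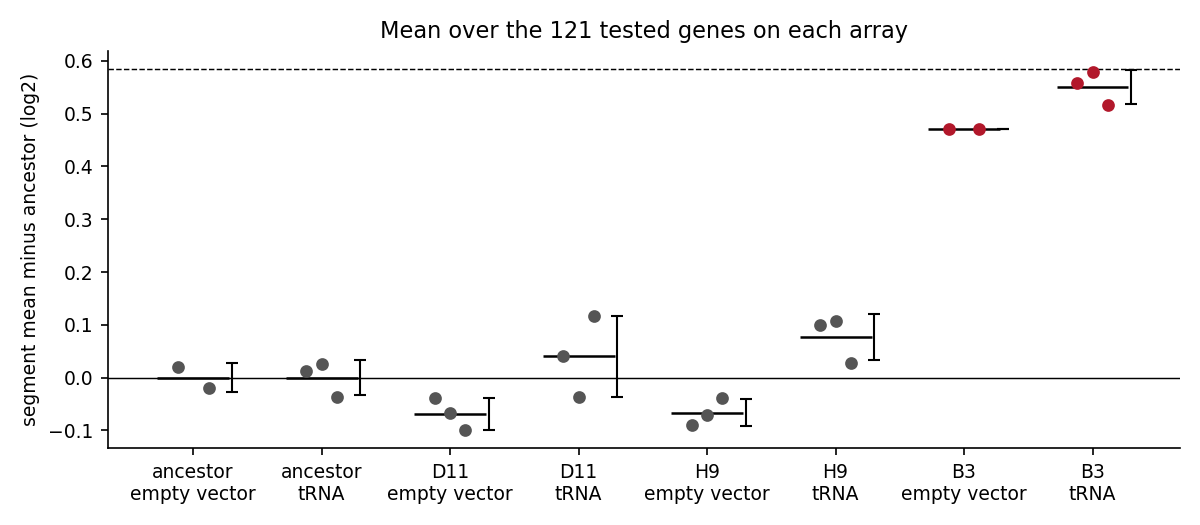
Segment mean of the 121 tested genes on each of the 22 arrays (points), as log2 difference from the ancestor arrays with the same plasmid. Horizontal bars are group means and error bars SD over arrays, the dashed line marks the log2 of 3 copies over 2, and all 5 B3 arrays (red) lie at 0.47 or above while the other 17 lie at 0.12 or below.

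Measured against the mean of the ancestor, D11 and H9 together, the segment mean of B3 was 0.51 ± 0.023 (SD, n = 5 arrays), a fold of 1.43. A change in proportion to 3 copies over 2 would be 0.585, a fold of 1.5. The arrays lay on 3 slides, each with the replicates of 1 number, and the slide of replicate 3, scanned on another day, had neither B3 nor the ancestor with the empty vector. Within slides and within a plasmid, B3 lay above the other strains by 0.51 with the empty vector and 0.51 with the tRNA on the slide of replicate 1, by 0.52 and 0.55 on that of replicate 2, and by 0.48 with the tRNA on that of replicate 3. Since RNA came from whole cultures, less RNA per copy and fewer cells with the extra copy cannot be told apart. The segment mean also moved with the processing. It was 0.423 with another background correction (normexp) and 0.545 when scaled on chromosomes without copy number changes. The part of the processing in the distance from 0.585 was not tested.

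The rise was spread over the members rather than carried by a few. On each B3 array, between 110 and 115 of the 121 genes lay above the mean of the other strains with the same plasmid. On the other 17 arrays, set against the remaining strains without B3, this number ran from 46 to 85 with a median of 62. In B3 against the other strains over both plasmids, the median difference was 0.52, beside 0.01 over all 5912 genes tested. In that comparison 87 members were called higher at an adjusted p under 0.05, where the background was 12.1% of all genes, and 3 were called lower, where it was 14.5%. At 2-fold or more 5 members were called higher (background 0.609%) and 0 lower (background 0.812%). A fold of 1.5 lies below that threshold. Of the 121 members, 111 were above background on every array, and they gave 86 called higher and 3 lower at a median of 0.51. YGR051C and YGR115C passed the filter on dim probes through B3 arrays alone, and neither was called. For 40 members all 5 B3 arrays lay above all 17 others, which was so for 2.15% of all genes, and for 0 members were they all below (1.03% of all genes).

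The difference held with either plasmid and against the ancestor alone. With the empty vector, 64 members were called higher than in the other strains (background 7.85%) and 2 lower (background 8.98%), with a median of 0.50. With the tRNA the counts were 72 (background 5.84%) and 2 (background 5.73%), with a median of 0.51. Against the ancestor alone, 44 were called higher with the empty vector (background 6.77%) and 1 lower (background 7.44%), at a median of 0.50. With the tRNA 53 were called higher (background 2.91%) and 0 lower (background 1.62%), at a median of 0.56. At 2-fold or more the empty vector pair gave 8 higher (background 1.45%) and 0 lower (background 1.96%). It rests on 2 arrays a side, and its 44 calls fell to 14 without replicate 1 of B3.

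The other strains did not share the shift. Set beside the same ancestor arrays that B3 was compared with, the median member of D11 differed by 0.01 with the empty vector and 0.05 with the tRNA, and that of H9 by -0.06 and 0.11. The medians over all genes in these comparisons were -0.01, 0.05, -0.05 and 0.05. In D11 with the empty vector 12 members were called higher (background 16%) and 21 lower (background 14%). The higher ones included the ribosome factors NSR1, NOP7 and SLX9, and the lower ones MUP1, THI4, ROM1 and GPC1. In H9 with the empty vector ERG25 alone was called higher (background 2.13%), and THI4 and MUP1 were called lower (background 1.62%). With the tRNA 6 members were higher and 4 lower in D11 (backgrounds 6.34% and 2.22%), and 6 higher and 6 lower in H9 (backgrounds 5.51% and 7.27%).

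The rise began and ended near the edges that the naming rule sets. At the first edge KSS1, BUD9 and MTE1 were higher in B3 by 0.54, 0.73 and 0.70 (adjusted p at most 7.31e-06), while NQM1, the fourth gene inside, differed by 0.22 (adjusted p = 0.334). Just outside it lay YGR039W, ORM1, ACB1 and CAX4. ORM1, a regulator of sphingolipid synthesis, and ACB1, which binds acyl-CoA, differed by 0.02 and 0.00, and CAX4 by 0.26 with a standard error of 0.39. YGR039W was higher by 0.74 (adjusted p = 0.000488) although the naming rule places it outside, but by 0.25 (adjusted p = 0.262) after normexp background correction, which models the background as a distribution in place of the scanner software's correction. Its B3 arrays lay between -4.14 and -3.69 and the others between -5.14 and -3.78, so the groups overlapped. At the far edge MTR3 and YGR160W were higher by 0.90 and 0.82 (YGR160W by 0.30 after normexp, adjusted p = 0.184), NSR1 differed by 0.67 (adjusted p = 0.0837), and RTS3, the last gene inside, by 0.10 (adjusted p = 0.431). Outside it TIF4631, GTR2 and TRS65 differed by -0.01, -0.06 and 0.16, and MRPS35, a mitochondrial ribosomal protein gene, was lower by 0.48 on the log2 scale (adjusted p = 0.00655).

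Of the 27 tested genes before the segment 1 was called higher and 3 lower, at a median of -0.02, and of the 27 after it 1 and 5, at a median of -0.01. The backgrounds were 12.1% higher and 14.5% lower. Inside, the 41 genes up to SLX9 had a median of 0.49, the 40 from TOM20 to COG2 of 0.54, and the 40 from MEP1 on of 0.47. Genes on the Watson strand (67) and the Crick strand (54) had medians of 0.51 and 0.52. Members split into 3 parts by their median signal on the other 17 arrays had medians of 0.51, 0.52 and 0.50, from the dimmest to the brightest. These medians were close to each other, though no test of their differences was made, and calls were fewest among the dim members, with 23 of 41 against 33 of 40 and 31 of 40.

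**Figure D2:**
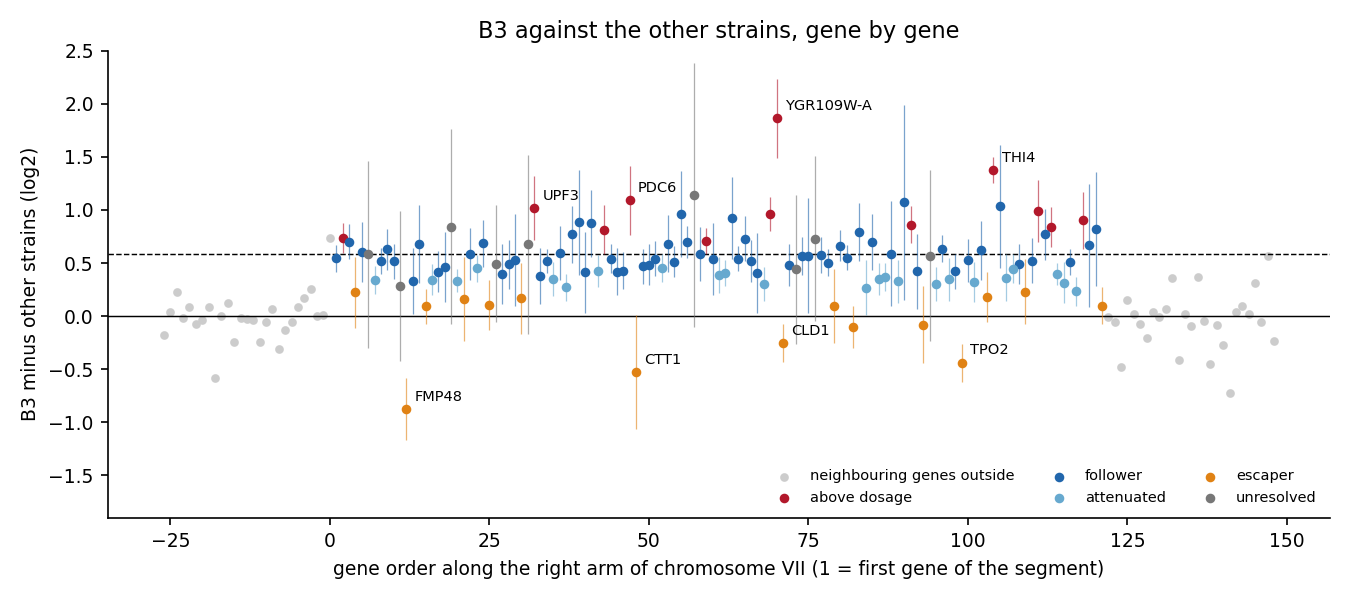
Difference of B3 from the other strains over both plasmids (log2, points) with 95% interval (vertical lines) for the 121 tested genes and, in grey and without intervals, the 27 tested genes on either side, in gene order. The solid line is 0 and the dashed line the log2 of 3 copies over 2. Points inside the segment sit mostly near the dashed line and those outside near 0, and FMP48, CTT1, TPO2 and CLD1 are the lowest inside.

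Chromosome IX, which the study's table also lists as trisomic in the line with the chromosome VII segment, gave a like distribution in B3. The median over its 204 tested genes was 0.48, with quartiles of 0.34 and 0.68, beside 0.52 with quartiles of 0.35 and 0.68 in the segment. The 405 genes of chromosome VII outside the segment had a median of -0.03 and quartiles of -0.17 and 0.10, and 4.44% of them were called higher. No test of the difference between chromosomes was made.

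Members were sorted by the 95% interval of their difference. A follower's interval lay above 0 and held 0.585. An attenuated gene's lay above 0 and below 0.585, an above-dosage gene's lay wholly above 0.585, an escaper's reached 0 or lower and stayed below 0.585, and an unresolved gene's held both values. There were 62 followers (7.75% of all genes fell in that class), 23 attenuated (8.09%), 12 above dosage (0.981%), 15 escapers (71.5%) and 9 unresolved (11.7%). Of the 62 followers, 53 were called higher (background 12.1%). A wide interval can also hold 0.585, so the class includes imprecise members such as UTP8 and NSR1. On chromosome IX, 52.0% of genes were followers and 14.2% escapers, against 51.2% and 12.4% of the members. The classes depended on the value taken for 3 copies. With the median of chromosomes IX and XII in B3, 0.32, in place of 0.585, 51 members were above dosage, 0 attenuated and 8 escapers. Chromosome XII is listed by the study as trisomic in several lines, among them the line with the chromosome VII segment, and its median alone was 0.25. The copy number of chromosome XII in D11 and H9 was not tested. An extra copy in either strain would lower that median, so 0.32 may be too low a value for 3 copies.

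SPT6 and SPT4, the elongation factors of the segment, stood on either side of the line between followers and attenuated genes. SPT6, a histone chaperone that travels with the polymerase, had levels of 2.24 and 2.27 in B3 with the empty vector and 2.06, 2.00 and 2.19 with the tRNA. On the other 17 arrays it ran from 0.92 through a median of 1.61 to 1.90. All B3 arrays thus lay above all others, and the difference was 0.58 ± 0.081 (SE, adjusted p = 5.67e-05), a follower. SPT4, the small partner of SPT5, had levels of -0.03 and -0.02 in B3 with the empty vector and -0.03, 0.04 and -0.14 with the tRNA, against -0.83, -0.52 and -0.02 (lowest, median, highest) on the others. One H9 array reached the B3 range. The difference was 0.45 ± 0.061 (SE, adjusted p = 3.98e-05), with an interval from 0.323 to 0.579, just below the line.

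The gene lists below are read in B3 against the other strains over both plasmids unless stated. There 71.9% of the members and 12.1% of all genes were called higher, and 2.48% and 14.5% lower. Whether any list departed from the share of the members was not tested. Transcription, chromatin and mRNA turnover genes rose as a whole, with 8 of 8 called higher at a median of 0.53. The highest was UPF3, which acts in nonsense-mediated decay. Its levels in B3 were 1.73 and 1.77 with the empty vector and 1.48, 1.63 and 1.38 with the tRNA, against -0.01 to 1.14 (median 0.61) on the others, with no overlap. The difference was 1.02 ± 0.14 (SE, adjusted p = 5.35e-05), a fold of 2.03. The lowest was RSC1, a subunit of the RSC chromatin remodeler, at 0.34 (adjusted p = 0.00141). TFC4 of TFIIIC, SRB5 of Mediator, PTI1 of the cleavage and polyadenylation factor and CAF130 of the CCR4-NOT complex were all followers, at 0.52, 0.54, 0.51 and 0.64.

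Splicing genes gave 5 of 5 called higher at a median of 0.54. SMD1, a core snRNP protein, had B3 levels from 0.21 to 0.47 and levels from -0.35 to 0.01 on the other arrays, with no overlap and a difference of 0.52 (adjusted p = 3.13e-06). SYF2 was the highest of the group, at 0.86 (adjusted p = 1.51e-06), and PRP38 the lowest, at 0.35 (adjusted p = 0.00221), which fell to 0.11 after normexp (adjusted p = 0.567).

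Ribosome biogenesis genes had the highest median of the role lists in B3 against the other strains over both plasmids. Of the 8 listed, 6 were called higher and 0 lower, and the median was 0.92. RRP46, a core subunit of the RNA exosome, had levels of 1.70 and 1.60 in B3 with the empty vector and 1.77, 1.76 and 1.47 with the tRNA. The others ran from -0.45 through 0.83 to 1.21, so the groups did not overlap, and the difference was 0.96 ± 0.19 (SE, adjusted p = 0.00134). The low end came from D11 with the tRNA, replicate 2, and without that array the difference was 0.89. MTR3, another exosome subunit, had B3 levels from 0.69 to 0.98 and others from -1.08 to 0.34, and differed by 0.90 (adjusted p = 6.01e-05). The 8 listed exosome genes elsewhere in the genome gave 0 calls and a median of 0.07, from -0.14 for RRP45 to 0.26 for RRP4. That median depended on the reference. With the ancestor alone as reference, B3 had a median of 0.35 over these genes with the empty vector and -0.08 with the tRNA. D11 with the empty vector stood at 0.37 and H9 at -0.05. UTP22 was the lowest of the ribosome biogenesis list, at 0.48 (adjusted p = 0.00076). ENP2 and NOP7 were called at 1.04 and 0.93, and the 2 not called were UTP8, at 1.07 (adjusted p = 0.0805), and NSR1. One comparison array, H9 with the empty vector, replicate 3, was the lowest of its group for all 8 genes, with ENP2 at -1.91 beside 0.40 and 0.33, and it gave the low ends of MTR3 and NSR1. Without it 7 were called higher at a median of 0.85, with ENP2 at 0.91 and NSR1 at 0.55 (adjusted p = 0.0155).

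Against the ancestor alone, 4 of the 8 were called higher in B3 with the empty vector (background 6.77%), at a median of 1.25. With the tRNA 1 was called higher (background 2.91%), at a median of 0.58. There the protein folding and turnover list had a higher median, 0.63. In D11 with the empty vector the median of the list was 0.66, where NSR1, NOP7 and SLX9 were called higher than the ancestor, by 1.36 (adjusted p = 0.0424), 0.98 (adjusted p = 0.0304) and 0.93 (adjusted p = 0.0147). The other 5 were not called, and UTP8 differed there by -0.68 (adjusted p = 0.511). In H9 with the empty vector the median was -0.11 and 0 of the 8 were called, and without replicate 3 it was 0.18, again with 0 calls. NSR1, a nucleolar protein, had B3 levels of 4.89 and 4.92 with the empty vector and 4.96, 5.01 and 4.31 with the tRNA, but the 17 others ran from 2.23 through 4.49 to 5.003 and overlapped with them. ENP2 kept its difference of 1.04 against the ancestor alone, but at an adjusted p of 0.0526.

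The 3 ribosomal protein genes differed. RPL24B and RPL11B were higher by 0.49 (adjusted p = 0.000677) and 0.42 (adjusted p = 0.00672). RPS23A had B3 levels of 6.59, 6.46, 6.46, 6.57 and 6.18 and levels of 5.67, 6.41 and 7.54 (lowest, median, highest) on the others, and its difference was 0.10 with an interval from -0.25 to 0.45. Each of the 3 has a nearly identical copy elsewhere, to which its probe may also bind, so the share that each copy gives is uncertain. The paired copies RPL24A, RPL11A and RPS23B differed by 0.04, 0.06 and -0.05, with 0 called.

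Translation and protein folding genes were all called higher against the other strains. GCD2, a regulatory subunit of initiation factor eIF2B, had B3 levels of 2.52 and 2.43 with the empty vector and 2.49, 2.46 and 2.17 with the tRNA, against 0.97, 1.67 and 2.01 on the others. The groups did not overlap, and the difference was 0.81 ± 0.11 (SE, adjusted p = 3.43e-05). VAS1, the valyl-tRNA synthetase, and YGR054W, initiation factor eIF2A, were followers at 0.51 and 0.68. The 5 protein folding and turnover genes were all called higher at a median of 0.63, from PEX4, a peroxisomal ubiquitin-conjugating enzyme, at 0.30 to PAC10, a prefoldin subunit, at 0.77. BTN2, which sequesters misfolded proteins, lay at 0.39 and 0.33 in B3 with the empty vector and at 0.65, 0.95 and 1.32 with the tRNA. Its other arrays ran from -0.56 to 0.53, so only the tRNA arrays cleared them all. BTN2 was called at 0.62 against the other strains, but not against the ancestor alone over both plasmids, at 0.41 (adjusted p = 0.105). With the empty vector its mean level was 0.36 in B3 and 0.41 in the ancestor. With the tRNA these means were 0.97 and 0.09.

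The 12 listed mitochondrial genes gave 9 called higher and 1 lower, at a median of 0.48. FMP48, a protein found in mitochondria with a difference of -0.88, was not in this list. TPC1, a thiamine pyrophosphate carrier, was the highest, at 0.70 (adjusted p = 2.63e-06), with B3 levels from -0.42 to -0.15 and others from -1.29 to -0.64. CLD1, a phospholipase that acts on cardiolipin, was the lowest of the list. Its B3 levels were -1.41 and -1.27 with the empty vector and -0.69, -0.51 and -0.56 with the tRNA, within the other range of -1.36 to 0.12 except for 1 array. It was called lower than the other strains by 0.25 on the log2 scale (adjusted p = 0.0388). The value stayed between -0.29 and -0.22, but the call was lost in 4 of 9 other settings (adjusted p from 0.0727 to 0.223) and in 11 of the 22 fits that left out 1 array. PHB1 and SHY1 were not resolved.

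Cell cycle genes gave 6 of 6 called higher at a median of 0.55. CLB6, an S-phase cyclin, had B3 levels of -0.47 and -0.58 with the empty vector and -0.79, -0.93 and -0.99 with the tRNA, against -2.23, -1.83 and -1.04 on the others, with no overlap. It was higher by 0.96 ± 0.076 (SE, adjusted p = 2.15e-07), a fold of 1.95 and above dosage. CLB1, a mitotic cyclin that is its neighbour, was the lowest of the group, at 0.30 (adjusted p = 0.00635) and attenuated. Against the ancestor CLB1 differed by 0.01 with the empty vector and 0.75 with the tRNA. The kinetochore genes DAM1 and CBF2 and the separase ESP1 were followers, at 0.57, 0.53 and 0.58, and the kinase DBF2 was attenuated, at 0.45.

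Among the role lists, which leave out FMP48, metabolic enzymes held the widest spread. Of 7, 6 were called higher and 0 lower, at a median of 0.34. THI4, the enzyme that makes the thiazole part of thiamine, had B3 levels of -0.64, -0.40, -0.45, -0.55 and -0.49, and the others ran from -2.67 through -1.94 to -1.36, well apart. The difference was 1.37 ± 0.057 (SE, adjusted p = 2.42e-10), a fold of 2.59. Part of this came from the comparison strains. Against the ancestor B3 was higher by 0.86 with the empty vector (adjusted p = 0.00023) and 0.91 with the tRNA (adjusted p = 3.3e-05), while D11 and H9 with the empty vector were lower than the same ancestor arrays by 0.92 and 0.74 on the log2 scale. PDC6, a minor pyruvate decarboxylase, had B3 levels of -3.27 and -3.02 with the empty vector and -2.81, -2.93 and -2.95 with the tRNA, against -5.17, -4.26 and -3.19. One array with the empty vector overlapped with the others, and the difference was 1.09 ± 0.15 (SE, adjusted p = 5.71e-05). After normexp background correction the difference of PDC6 was 0.53 (adjusted p = 0.0132). Against the ancestor it was 0.98 with the empty vector (adjusted p = 0.0367) and 0.49 with the tRNA (adjusted p = 0.431). ASN2, ERG25, CYS4 and CHO2 were attenuated, between 0.23 and 0.35. ADE6, of purine synthesis, had B3 levels from 2.99 to 3.20 within the other range of 2.38 to 4.19, and a difference of 0.16 (adjusted p = 0.57).

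Among the role lists of the segment, only in that of the transporters were escapers most of the genes. The carrier TPC1, a follower at 0.70, was listed under mitochondria instead. Of the 5 listed transporters, 1 was called higher and 1 lower, the median was 0.09, and 4 were escapers. VSB1, of the vacuole membrane, was higher by 0.37 (adjusted p = 0.000394). TPO2, which exports polyamines, had B3 levels of 3.23 and 2.95 with the empty vector and 3.25, 3.43 and 3.07 with the tRNA, against 3.17, 3.60 and 4.02. The groups overlapped through 2 ancestor arrays, and TPO2 was lower by 0.44 on the log2 scale (adjusted p = 0.00097). It lost the call against the ancestor alone, at -0.29 (adjusted p = 0.0748). The permeases MUP1 for methionine, VHT1 for biotin and MEP1 for ammonium differed by 0.09, 0.11 and -0.10. MUP1 depended on the reference. It was at 3.19 and 3.13 in B3 with the empty vector and from 3.29 to 3.35 with the tRNA, and the ancestor with the empty vector had the highest MUP1 level of all groups, a mean of 3.89. Against it B3 was lower by 0.73 on the log2 scale (adjusted p = 0.00623), and D11 and H9 by 1.06 and 0.71.

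Stress-related genes gave 4 of 6 called higher, at a median of 0.38. CTT1, the cytosolic catalase, had B3 levels of -0.48, -0.48, -0.41, -0.61 and 0.06. The others ran from -0.73 through 0.02 to 2.08, with H9 with the empty vector, replicate 3, far above the rest, and the groups overlapped. The difference was -0.53 ± 0.25 (SE, adjusted p = 0.143), and the interval, from -1.06 to 0.01, ended below the dosage value. Without that array the difference was -0.41 and was called lower (adjusted p = 0.032). Against the ancestor it was -1.04 with the empty vector (adjusted p = 0.169) and 0.12 with the tRNA. NQM1 was the other escaper of the list, while PIL1, of the eisosome, and BTN2 were followers and ECL1 and GTO1 attenuated.

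FMP48, a protein found in mitochondria, had the lowest difference of all members. Its levels were -2.95 and -2.94 in B3 with the empty vector and -4.35, -4.17 and -3.76 with the tRNA, against -4.42, -2.55 and -1.59 on the others. It was lower by 0.88 on the log2 scale (adjusted p = 0.000153). The groups overlapped because the ancestor with the tRNA was as low, at a mean of -4.24. With the tRNA, D11 and H9 were higher than the ancestor by 1.08 (adjusted p = 0.00379) and 2.60 (adjusted p = 1.22e-06), and B3 differed from it by 0.15. Against the ancestor alone the difference of B3 was -0.10 over both plasmids (adjusted p = 0.789).

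**Figure D3:**
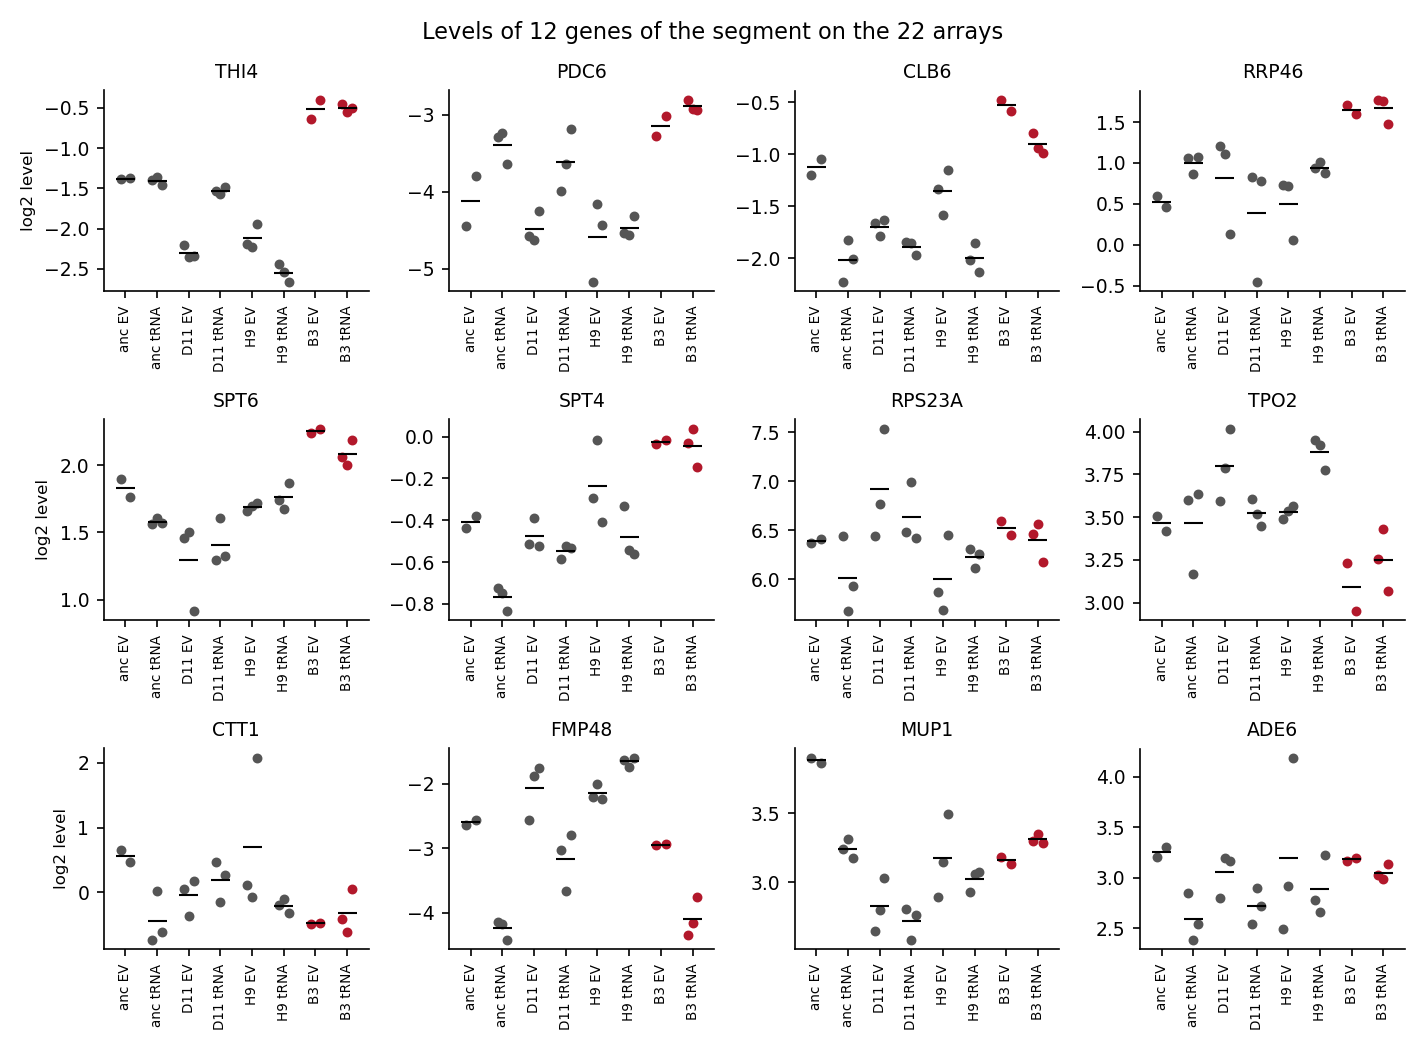
Levels (log2 processed signal minus the array median) of 12 members on each array by group, B3 in red, with horizontal bars at group means and a separate vertical scale for each gene. THI4, CLB6, RRP46 and SPT6 show B3 apart from all others, PDC6 and SPT4 nearly so, while RPS23A, TPO2, CTT1, FMP48, MUP1 and ADE6 overlap.

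YGR109W-A, which has no symbol or role in the annotation used here, had the highest difference. R64 places another open reading frame, YGR109W-B, over it, so the transcript measured is uncertain. Its levels were 1.72 and 1.76 in B3 with the empty vector and 2.61, 2.03 and 1.17 with the tRNA, and the others ran from -2.19 through 0.00 to 1.26. One B3 array overlapped with them. It was higher by 1.86 ± 0.18 (SE, adjusted p = 1.51e-06), but against the ancestor by 0.78 with the empty vector (adjusted p = 0.132) and 1.29 with the tRNA (adjusted p = 0.0102). With the tRNA, D11 and H9 were lower than the ancestor by 1.44 and 2.57 on the log2 scale. Among the further members above dosage, TEL2, which stabilises PI3-kinase-related kinases, stood out for its small spread, with B3 levels from 0.89 to 0.98 and others from 0.00 to 0.46. BUD9, a marker of bud sites, and YGR153W, with no known role, were above dosage at 0.73 and 0.84.

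Of 12 doubtful gene models on the array 11 were tested. YGR045C, YGR051C, YGR114C and YGR115C had no array well above background in at least 1 group, and their differences are given no reading. Of the other 7, 5 were called higher and 0 lower. YGR151C, which overlaps RSR1, was higher by 0.99 (adjusted p = 5.74e-05), beside 0.77 for RSR1. YGR160W, which overlaps NSR1, and YGR064W, which overlaps SPT4, were higher by 0.82 and 0.69, and their signal cannot be told apart here from that of the gene they overlap.

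**Figure D4:**
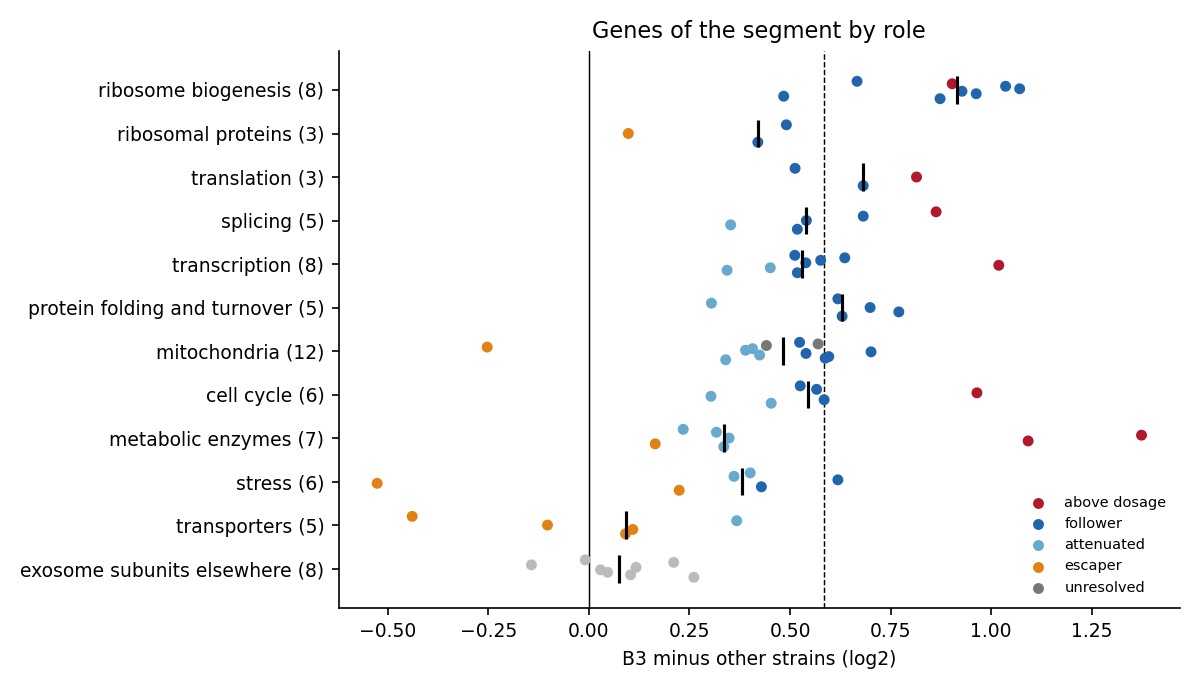
Difference of B3 from the other strains over both plasmids (log2) for each gene of the role lists (points, coloured by dosage class) with list medians (vertical bars) and the number of genes tested in brackets. The solid line is 0 and the dashed line the log2 of 3 copies over 2. Ribosome biogenesis has the highest median, 0.92, and transporters the lowest of the segment's lists, 0.09, beside 0.07 for exosome genes elsewhere (grey).

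Subunits of stable complexes were mostly higher in B3. Of 28, 25 were called higher and 0 lower, at a median of 0.54, beside 0.52 for all members. There were 19 followers, 4 attenuated, 3 above dosage, 1 unresolved and 1 escaper, RPS23A.

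Many members have a related gene, or paralog, elsewhere in the genome. Of 24 such pairs, 18 had the partner away from chromosome XII, and 16 of the 18 members had a higher difference than their partner. The members of these pairs gave 11 calls higher (background 12.1%) and 1 lower (background 14.5%) at a median of 0.35. The 18 partners gave 0 higher and 7 lower at a median of -0.24, against the same backgrounds. Most of the 18, and all 7 called lower, lie on chromosome XVI, so they do not stand for paralogs in general. The study lists the loss of 1 copy of a part of chromosome XVI in an evolved line other than that with the chromosome VII segment. Its part in these values was not tested. TPO3, the partner of TPO2, was lower by 0.43 on the log2 scale (adjusted p = 9.14e-05), close to TPO2 itself. LSP1, the partner of PIL1, was lower by 0.43 (adjusted p = 0.0263), not called against the ancestor alone (adjusted p = 0.0895), and TDA6, the partner of VPS62, differed by -0.55 (adjusted p = 0.0608). The partners were not compared with other genes of their chromosomes.

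The differences with the empty vector and with the tRNA come from separate arrays. Both were above 0 for 110 members and below 0 for 5, and had opposite signs for 6. Of the 64 and 72 called higher, 57 were shared, and TPO2 and FMP48 were called lower in both. Across the 121 genes, which are not independent of each other, Pearson's r was 0.64 and Spearman's rho 0.64. No member was called for a change of its B3 difference between plasmids, with 0 from limma (backgrounds 0.0169% higher and 0.0338% lower) and 5 higher and 1 lower at an unadjusted p under 0.05. The greatest changes between plasmids were those of YGR109W-A, GID10, UTP8 and CTT1, at 1.52, 0.97, -0.79 and 0.72 (adjusted p at least 0.253), leaving out YGR051C, which was above background on 4 of the 22 arrays. Against the ancestor alone, a comparison added after seeing the data, CHO2 was the 1 member called for such a change, where the background was 0.44%.

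**Figure D5:**
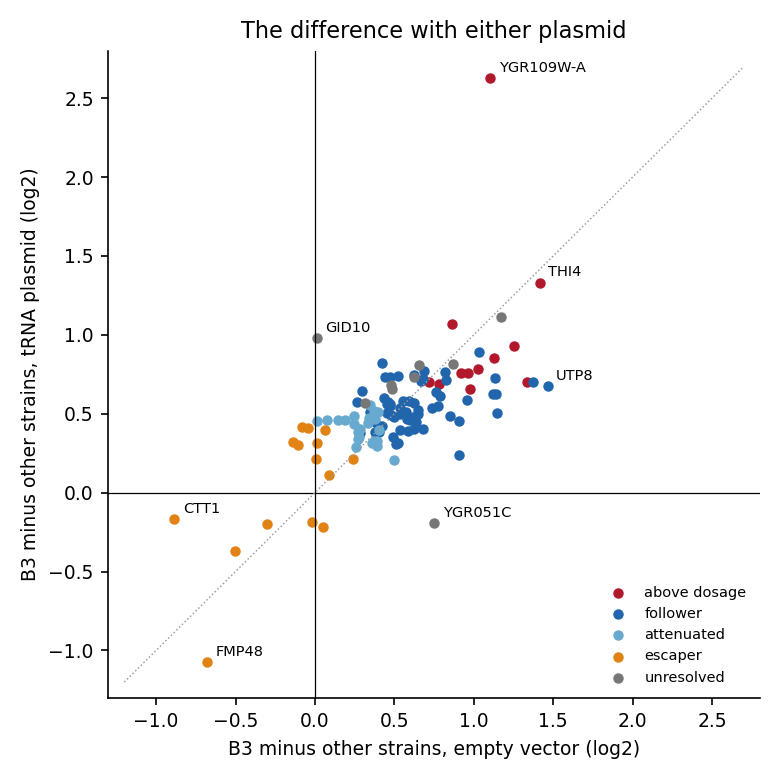
Difference of B3 from the other strains for each of the 121 members (points, coloured by dosage class), with the empty vector on the horizontal and the tRNA plasmid on the vertical axis (both log2), on separate sets of arrays. The dotted line marks equal values, and 110 members lie above 0 on both axes.

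For some members single arrays decided the outcome. ASK10, UTP8, PHB1 and SHY1 were at -1.82, -1.92, -2.56 and -3.37 on D11 with the empty vector, replicate 3, each below all other arrays save 1 for ASK10. ASK10, PHB1 and SHY1 were also low on D11 with the tRNA, replicate 2, at -2.62, -0.99 and -3.12. Further members were lowest within D11 on the same 2 arrays, among them ENV11, at -2.99 and -3.49, and RRP46, at 0.13 and -0.45. These 2 arrays had the lowest median signals of the 22, and the part of this in the low values was not tested. Without both arrays, a choice made after seeing the data, ASK10 differed by 0.71 (adjusted p = 3.24e-06), UTP8 by 0.84 (adjusted p = 0.000377), PHB1 by 0.30 (adjusted p = 0.00318) and SHY1 by 0.20 (adjusted p = 0.0925), and 92 members were called higher and 3 lower.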

How the data were processed

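Expression was measured on 22 one-colour arrays. The authors deposited spot intensity values from Agilent Feature Extraction 10.7.3.1, which subtracts the background and removes a spatial trend, per the file headers, and their methods state median centring. They also deposited a table of log2 values, which equalled log2 background-subtracted signals shifted by 1 constant per array, within 0.01. Log2 processed signals were centred on each array's median over 12512 non-control spots. Outlier spots were left out, and spots and then probes were averaged per gene. Genes were kept where a probe was well above background on all arrays of at least 1 group (5912 of 6225). limma 3.58.1 in R 4.3.3 was fitted to all 22 arrays with a coefficient for each group (degrees of freedom 14 residual and 2.24 prior) and tested on simulated data. Calls used a Benjamini-Hochberg adjusted p under 0.05 over all genes. The 3 comparison strains had equal weight, and both plasmids were averaged. The comparisons with both plasmids against the ancestor alone were added after seeing the data.

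Named genes were the 10 members with the highest and the 10 with the lowest difference, 4 genes on each side of both edges, the extremes of each role list, SPT4, SPT6 and CTT1, the 5 with the greatest change between plasmids, and the 3 partners with the greatest difference. Other members were named after their values were seen. Members and lists were chosen with earlier results of these data known. R64 matched 110 of 122 members and gave symbols only, since the array was designed on an older genome build, so no positions are reported. The sources used here do not say whether replicates were separate cultures, so p-values measure the spread between these arrays, which may be technical. Same-numbered arrays shared a slide, and their deviations had r from -0.56 to 0.60 over 71 pairs (median 0.02, 23 over 0.1). No test of a slide effect was made. The number of arrays limits the precision. Normexp was run on the median signal because the files used here hold no mean signal.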

Additional observations from a re-analysis of the deposited data

Results flagged for a closer look

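CHO2 (YGR157W), a methyltransferase of phosphatidylcholine synthesis, was picked out by a difference between strains in the response to the tRNA. Tested as an interaction in limma, the difference of B3 from the ancestor was greater with the tRNA than with the empty vector by 0.77 ± 0.16 on the log2 scale (SE, adjusted p = 0.0374). It was the 1 member so called, where 0.44% of all genes were called higher. Levels were 2.33 and 2.19 in B3 with the empty vector and 2.29, 2.33 and 2.38 with the tRNA, while the ancestor had 2.29 and 2.47 and then 1.58, 1.85 and 1.63. The ancestor's arrays with the tRNA lay below its arrays with the empty vector, and those of B3 did not separate. Against the 3 other strains together the same change was not called.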

How the results depend on the processing

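The segment mean (0.51) stayed above 0 in every setting run. It was 0.423 after normexp background correction, 0.545 with scaling on chromosomes without copy number changes and 0.507 to 0.522 with single arrays left out. The count of members called higher against the ancestor with the empty vector (44) was 83 with only the groups compared in the fit, 8 at 2-fold or more and 14 to 59 with single arrays left out (14 and 16 without B3 with the empty vector, replicate 1 and 2, and 22 and 18 without the same replicates of the ancestor). The methods' t-test at their p gave 42, and it called 1345 of 5910 genes in either direction. After Benjamini-Hochberg at 0.05 these counts were 48 and 1636. For the fits with fewer groups or arrays, the shares over all genes were not computed. Against the other strains with the empty vector (64), 27 were called with only the groups compared and 25 to 72 with single arrays left out (25 and 29 without replicate 1 and 2 of B3). Over both plasmids (87), 5 were called at 2-fold or more and 74 to 92 with single arrays left out. With single arrays left out, the counts with the tRNA ran from 36 to 64 against the ancestor and from 50 to 82 against the other strains, and in the other settings from 47 to 62 and from 58 to 83. The 0 calls between plasmids became 1 without B3 with the tRNA, replicate 3.

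Members above dosage (12) were 7 with normexp, 7 with 99% intervals, 7 against the ancestor alone (chosen after seeing the data), 51 with the value from chromosomes IX and XII, and 7 to 15 with single arrays left out. Attenuated members (23) were 12 with 99% intervals, 0 with that value and 12 to 26. Escapers (15) were 28 with normexp, 8 with that value and 12 to 16. Unresolved members (9) were 15 with quantile normalization, 4 with normexp, 4 with probes above background on every array, 16 with that value, 23 with 99% intervals, 16 against the ancestor alone and 4 to 23. Followers stayed from 46 to 68, and from 60 to 72 with single arrays left out. The median member of D11 with the empty vector (0.01) was -0.0465 with 75th percentile scaling, 0.0607 with scaling on chromosomes without copy number changes, 0.0461 with quantile normalization, 0.108 with normexp and -0.025 to 0.0379 with single arrays left out. That of H9 (-0.06) was -0.0335 with scaling on those chromosomes, -0.0274 with quantile normalization and -0.0785 to -0.0379.

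With the replicate number as a block, 45, 51, 61, 72 and 86 members were called higher in the 5 comparisons, 10, 67, 20, 15 and 9 members fell above dosage, among followers, attenuated, escapers and unresolved, and 0 were called between plasmids. The median members of D11 and H9 were then -0.01 and -0.06 with the empty vector. The named genes were recomputed only for B3 against the other strains over both plasmids. Of 1763 values for 57 of them, 1669 kept direction and side of the threshold, 36 lost the call, 17 gained one and 41 changed sign. With single arrays left out, calls were lost for CLD1, ENP2 (1.02, adjusted p = 0.0535) and CLB1 (0.27, adjusted p = 0.0603) without B3 with the empty vector, replicate 1, for PEX4 (0.28, adjusted p = 0.0561) without replicate 2, and for YGR160W (0.68 to 0.86) and LSP1 (-0.45 to -0.37) without either B3 array with the empty vector or B3 with the tRNA, replicate 1 or 2. The sign changed against the ancestor alone for VHT1 (-0.037), MUP1 (-0.33, adjusted p = 0.0356), FHN1 (0.011), NQM1 (-0.0906), CAX4 (-0.0417), ACB1 (-0.0393), ORM1 (-0.0427), TIF4631 (0.0769) and RRP45 (0.302, adjusted p = 0.0487). With 75th percentile scaling, ACB1 (-0.0174) and ORM1 (-0.00272) changed sign, with scaling on unchanged chromosomes TIF4631 (0.019), with quantile normalization ACB1 (-0.0123) and ORM1 (-0.00247), with normexp ACB1 (-0.0145) and TIF4631 (0.0448), and with the deposited series values CAX4 (-0.0502), ACB1 (-0.0291) and TIF4631 (0.0355). With single arrays left out, ACB1 ran from -0.00959 to 0.0191, ORM1 from -0.0267 to 0.057, TIF4631 from -0.0631 to 0.0212 and FHN1 from -0.204 to 0.0184. The causes were not tested, beyond the smaller number of arrays where arrays were left out. Signal limits the dim members, of which 10 were not above background on every array.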
